A study of Mus musculus with 16 samples.

Results

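Immediate early genes are switched on within minutes of a stimulus without new protein synthesis, mostly through MAP kinase, serum response factor and CREB signals that reach factors already sitting on their promoters. Several of their products are transcription factors of the AP-1 and EGR families, and others are feedback regulators that shut the signal off. In liver they are known to respond to feeding, hormones, injury, partial hepatectomy and the handling of the animal or the tissue, and the transcripts are short-lived. Followed here were 10 such genes of the 15544 genes in the liver table. They were taken by symbol from a list: Fos (ENSMUSG00000021250), Jun (ENSMUSG00000052684), Junb (ENSMUSG00000052837), Egr1 (ENSMUSG00000038418), Atf3 (ENSMUSG00000026628), Ier2 (ENSMUSG00000053560), Ier3 (ENSMUSG00000003541), Myc (ENSMUSG00000022346), Btg2 (ENSMUSG00000020423) and Dusp1 (ENSMUSG00000024190).

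The libraries were made from whole liver RNA of 27-week-old female mice on a mixed CD-1 and 129P2 background, 16 in all, with 4 in each of 4 groups. Controls carried the floxed Esr1 allele (Esr1 fl/fl) without Cre, and mutants carried the same floxed allele together with Nkx2-1 Cre, which removes estrogen receptor alpha from cells with a history of Nkx2-1 expression, among them neurons of the medial basal hypothalamus. Both genotypes were fed either standard chow or a high fat diet (HFD), the latter for 17 weeks from 10 weeks of age. The intended deletion lies in the brain, so a liver library offers no check of it. The hour of killing and the time from death to freezing are not given in the sources used here, and neither is any statement that the libraries of a group came from separate litters or days. In whole tissue, more cells of a type and more RNA per cell cannot be told apart.

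Values are transcript abundances scaled to library size (TPM) that the authors had adjusted by a size factor per library, so they are per length and can be compared between genes, and the number of reads behind each value is unknown. A gene entered the tests if its value was at least 1 in at least 4 libraries. This left 12704 genes, with all 10 members among them, although Fos reached 1 in 8 libraries and Ier3 in 9. Differences are on log2(value + 1), a scale that shrinks the fold of low genes such as these, and come with the standard error (SE) of limma. Adjusted p-values are Benjamini-Hochberg values over all 12704 genes.

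The libraries were those of liver by their markers, with a summed level of hepatocyte markers between 68080 and 108800. Some stood apart before any comparison. The summed level of neutrophil markers (S100a8, S100a9 and others, 10 of 11 listed genes in the table) was 4.71 to 13.4 in chow-fed controls, but 3054 and 6606 in mutant chow libraries 1 and 2, against 27.3 and 117 in mutant chow libraries 3 and 4. On HFD it was 8.06 to 26.0 in controls and 14.3 to 156 in mutants. The library titles also fell into a lower-numbered and a higher-numbered series within each diet, whose meaning the labels do not give. On HFD the lower series held 3 controls and 1 mutant (mutant HFD library 1) and the higher series 1 control (control HFD library 4) and 3 mutants, so genotype and title series were largely aligned. On chow the lower series held 2 controls and 1 mutant and the higher series 2 controls and 3 mutants.

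The cyclic AMP response element (CRE), at which CREB and ATF proteins bind, is a well known feature of immediate early promoters. Promoter windows from RefSeq (build GRCm38.p6, 250 bases before to 50 bases after the start) were at hand for 7 of the 10 members, Btg2, Atf3, Jun, Junb, Fos, Dusp1 and Ier3. The CRE core TGACGT, searched on both strands, was present in 4 of the 7, Btg2, Atf3, Fos and Dusp1, and in 7.51% of all 32851 windows. The full palindrome TGACGTCA, which contains the core on both strands, was present in Btg2 and Dusp1 and in 1.79% of all windows. None of the 7 held the AP-1 motif TGANTCA (7.81% of all windows) or a CArG box, the site of serum response factor (1.63%). These windows end close to the start, and no match in them says nothing of sites elsewhere. The 60 bases around the core that lies nearest to the start are shown for those 4 members, to set the element of each beside the others. Each is written 5′ to 3′ on the gene's own strand with the CRE letters in capitals. They lie at chr12:85473797-85473856 (plus strand) for Fos, chr1:191183334-191183393 (minus) for Atf3, chr1:134079289-134079348 (minus) for Btg2 and chr17:26508583-26508642 (minus) for Dusp1, all upstream of the annotated start.
Fos: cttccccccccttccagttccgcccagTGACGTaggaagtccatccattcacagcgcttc
Atf3: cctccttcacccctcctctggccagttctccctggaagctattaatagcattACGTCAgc
Btg2: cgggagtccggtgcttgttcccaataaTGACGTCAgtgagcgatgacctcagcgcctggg
Dusp1: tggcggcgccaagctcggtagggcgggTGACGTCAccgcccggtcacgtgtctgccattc
Fos and Atf3 held only the core, which in Atf3 reads on the opposite strand, while Btg2 and Dusp1 held the full palindrome.

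The members differed widely in level. By the median of 16 libraries, Ier2, a nuclear regulator of transcription, was highest at 34.1, followed by the AP-1 subunit Junb at 26.9 and the MAP kinase phosphatase Dusp1 at 18.7. Jun, the AP-1 partner of Fos, stood at 6.15 and the zinc finger factor Egr1 at 6.0. The antiproliferative factor Btg2 was at 4.09, Myc at 2.41, the stress-induced factor Atf3 at 2.32, the survival regulator Ier3 at 1.21 and Fos at 1.09. The ranges of each pair of neighbours in this order overlapped.

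The spread between libraries was large, and it was mostly within groups. Egr1 ranged 25.7-fold over the 16 libraries and Fos 22.9-fold, followed by Myc at 10.4-fold, Ier3 at 10.1-fold and Junb at 7.94-fold. Ier2 and Jun ranged 2.81-fold and 2.76-fold. Within-group standard deviations were taken on log2(value + 1) and set against the 12704 genes tested. That of Egr1 stood at percentile 99.1, that of Junb at 98.0 and that of Fos at 97.8. That of Atf3 was the lowest of the members at 73.6, although Atf3 ranged 3.81-fold, more than Ier2 and Jun. Each of the 10 members was thus more variable within groups than the middle tested gene on that scale.

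**Figure D1:**
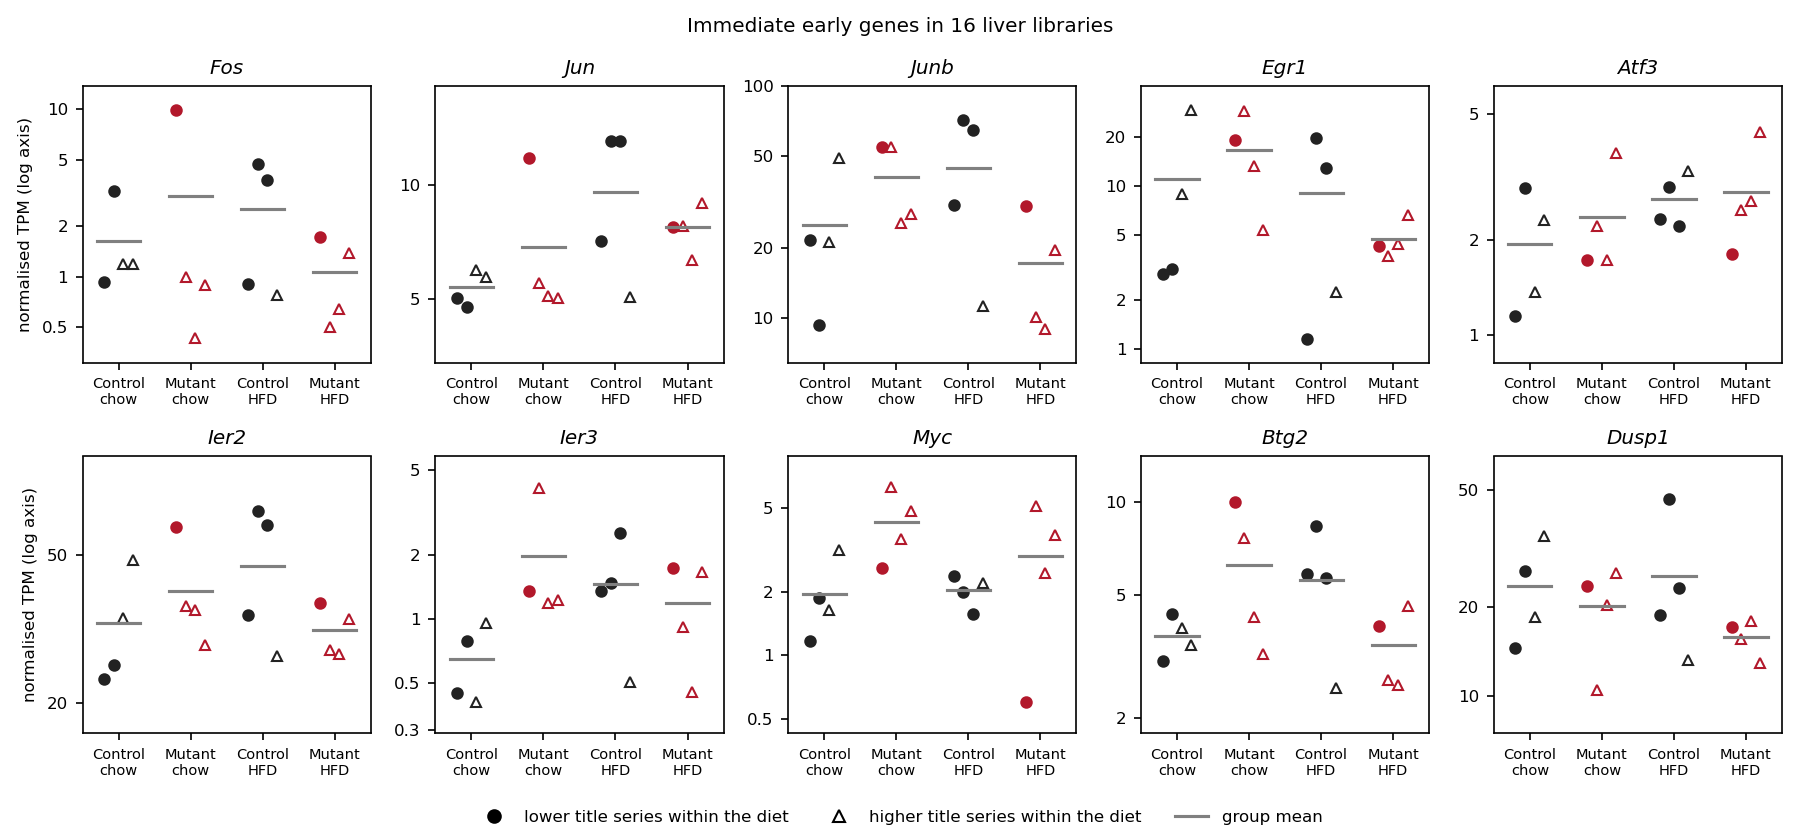
Normalised TPM (log axis, a scale of its own for each gene) of the 10 immediate early genes in each library of the 4 groups (n = 4 each), with controls in black and mutants in red; filled circles are libraries of the lower title series within the diet, open triangles those of the higher series, and grey lines are group means. Groups overlap in nearly every panel, and Ier3 on chow is the one pair of genotype groups without overlap.

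The high libraries were much the same ones for many members. Control HFD library 2 held the highest value of its group in 7 of 10 members and the highest of all 16 libraries in 4 of them (Junb, Ier2, Jun and Dusp1). Its mean over members lay 0.77 above the mean of the 16 libraries on the log2 scale, followed by mutant chow library 1 at 0.69 and control HFD library 3 at 0.51. At the other end, control chow library 1 lay at -0.56 and control HFD library 4 at -0.54, and each held the lowest value of its group in 7 members. The 4 libraries highest by this mean were control HFD 2 and 3, with neutrophil marker sums of 26.0 and 19.96, and mutant chow 1 and 2, with the highest neutrophil sums of the study. Kupffer cell and macrophage markers summed to 1125 and 1500 in mutant chow libraries 1 and 2 and to 872 and 623 in control HFD libraries 2 and 3. They summed to 415 and 581 in mutant chow libraries 3 and 4 and to 254 to 776 in chow-fed controls. On HFD they summed to 569.8 and 477.5 in control libraries 1 and 4 and to 432 to 678 in mutants, with 678 in mutant HFD library 1. The part of either cell type in the member levels was not tested.

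**Figure D2:**
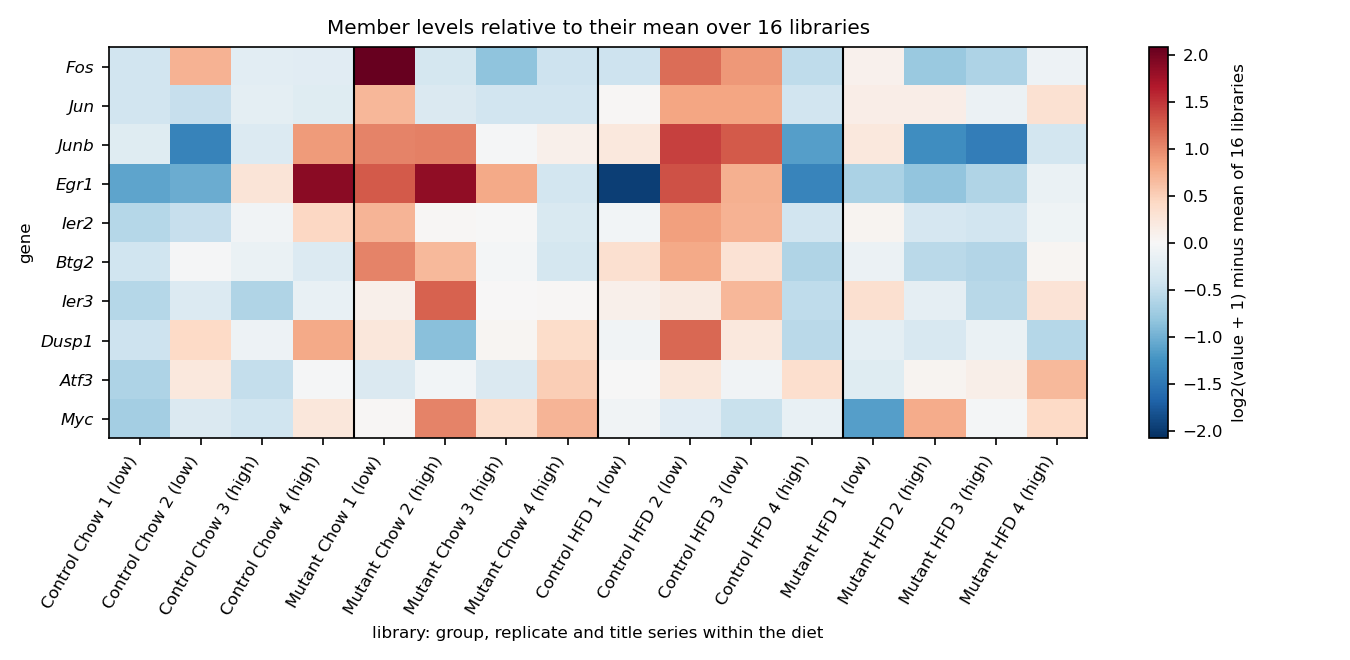
Each cell shows log2(value + 1) of a gene in 1 library minus the mean of the 16 libraries; columns are libraries by group, replicate and title series (low or high), separated by black lines between groups. Control HFD libraries 2 and 3 and mutant chow library 1 are red for Fos, Jun, Junb, Egr1, Ier2 and Btg2, whereas Atf3 and Myc run apart from these.

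After removal of the group means, likeness between members was measured as Pearson's r over the 16 libraries, given as a description. All pairs share the same 16 libraries and their scaling. Over the 45 pairs the median r was 0.39, from -0.41 to 0.87, with 31 pairs above 0. Fos, Jun, Junb, Egr1, Ier2 and Btg2 were alike, with r of 0.38 to 0.87 in their 15 pairs. Ier3 (0.25 to 0.67) and Dusp1 (0.24 to 0.59) were positive with each of these 6. Atf3 was between -0.27 and -0.04 with the same 6 and Myc between -0.41 and 0.13. Outside the members, the 5 genes with the highest mean r to the 10 were Otud1 at 0.56, Slc11a1 at 0.55, Arhgap27 at 0.55, Npc2 at 0.54 and Clec4g at 0.54, of 12694 candidates. Otud1 encodes a deubiquitinase, Slc11a1 a metal transporter of phagocytes, Npc2 a lysosomal cholesterol carrier and Clec4g a lectin of sinusoidal endothelium.

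On chow, the question was whether loss of estrogen receptor alpha in the brain of females altered the immediate early genes of the liver. None of the 10 members passed the adjusted threshold in limma, against 0.0236% of all genes tested (3 genes). At an unadjusted p under 0.05 there were 2 members, Ier3 and Myc, both higher in mutants, where 4.23% of all genes were called higher and 6.08% in either direction. Of the members, 9 of 10 had a log2 fold change above 0 (54.6% of all genes), with a median of 0.41 beside 0.02 for all genes.

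Ier3, which restrains cell death and ERK dephosphorylation, was 0.448, 0.783, 0.409 and 0.959 in the 4 chow-fed controls and 1.36, 4.11, 1.19 and 1.23 in the 4 mutants. Every mutant lay above every control, also within each title series, and mutant library 2 stood far above the rest. Ier3 was the only member whose chow groups did not overlap in this direction, as 1.95% of all genes did not. The difference was 0.76 (SE 0.30, 95% interval 0.11 to 1.41, limma adjusted p = 0.80), and the exact two-sided permutation test gave p = 0.0286, the smallest that 4 against 4 libraries allow, 1 of 40 such tests over members and comparisons to fall under 0.05. Without mutant library 2 the difference was 0.47 and no longer under 0.05 unadjusted, nor was it without control library 1 or 3. Without mutant libraries 1 and 2, those with the high neutrophil markers, it was 0.43, again not under 0.05 unadjusted.

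Myc, a transcription factor of growth and the cell cycle, was 1.17, 1.86, 1.64 and 3.15 in chow-fed controls and 2.59, 6.24, 3.57 and 4.80 in mutants. Control library 4 and mutant library 1 were the only values to cross, and within each title series every mutant was above every control. The difference was 0.84 (SE 0.34, limma adjusted p = 0.80; exact permutation p = 0.057). Without mutant libraries 1 and 2 it was 0.84, but not under 0.05 unadjusted, nor was it when control library 1 or 3 or mutant library 2 or 4 was left out alone. With the title series as a term it was 0.70 and that of Ier3 0.72, with 3 members (Ier3, Myc and Btg2) at an unadjusted p under 0.05 in that fit, where 8.32% of all genes were, and none past the adjusted threshold (0.00787% of genes).

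The differences of Fos and Jun on chow turned on a single library. Fos, the inducible AP-1 subunit, was 0.935, 3.25, 1.19 and 1.18 in controls and 9.83, 0.994, 0.430 and 0.894 in mutants. Mutant library 1 held the highest value of the study, and the other 3 mutants lay below or among the controls. The fold change of 0.14 (SE 0.55) became -0.51 without mutant library 1. Jun was 5.04, 4.74, 5.95 and 5.70 in controls and 11.8, 5.50, 5.09 and 5.03 in mutants, again with mutant library 1 alone above the controls, and the difference of 0.23 (SE 0.27) fell to -0.03 without it. Mutant library 1 was above both controls of its title series in 8 of 10 members. The 3 mutants of the other series were all above both controls in 2 members (Ier3 and Myc) and all below them in 2 (Fos and Jun). The share of all genes placed in these ways was not determined, and the members share their high libraries, so these counts are a description only.

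Junb was 21.6, 9.33, 21.2 and 48.8 in chow-fed controls and 54.6, 54.8, 25.7 and 28.2 in mutants. Its groups overlapped through control library 4, with a difference of 0.81 (SE 0.56, limma adjusted p = 0.93). Egr1, which follows ERK activity closely, was 2.89, 3.07, 8.997 and 29.6 in controls and 19.2, 29.0, 13.4 and 5.40 in mutants. The highest chow value was that of control library 4, and the difference of 0.88 had an SE of 0.73. Without mutant libraries 1 and 2 the differences became 0.31 for Junb and 0.20 for Egr1. Btg2 stood at 3.69 ± 0.56 (SD, n = 4) in controls and 6.25 ± 3.12 in mutants, a difference of 0.53 (SE 0.31) that came to 0.01 without those libraries. Ier2, Atf3 and Dusp1 differed by 0.29 (SE 0.29), 0.20 (SE 0.24) and -0.22 (SE 0.35).

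On HFD the members leaned the other way, with 8 of 10 lower in mutants (2 of 10 above 0, against 52.9% of all genes) and a median of -0.36 beside 0.02 for all genes. None of them passed the adjusted threshold, where 0.0157% of all genes did, and none was under 0.05 unadjusted, where 8.6% of all genes were. Without control HFD library 4, however, 4 members were under 0.05 unadjusted (Junb, Ier2, Btg2 and Dusp1; 23.9% of all genes), and without mutant HFD library 1 there were 2 (Junb and Myc; 20.1%). The comparison on HFD and that on chow used separate libraries.

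Junb led on HFD. It was 30.7, 71.6, 64.8 and 11.3 in HFD-fed controls and 30.5, 10.1, 9.01 and 19.7 in mutants. Control libraries 2 and 3 were high and control library 4 lay within the mutant range, so the groups overlapped. The group means were 44.6 ± 28.5 (SD, n = 4) and 17.3 ± 10.01, a log2 difference of -1.17 (SE 0.56, 95% interval -2.37 to 0.03, limma adjusted p = 0.58; exact permutation p = 0.11). Ier2, whose values were 34.4, 65.5, 60.1 and 26.8 in controls and 37.2, 27.8, 27.1 and 33.6 in mutants, was high in the same control libraries and low in the same one. It differed by -0.48 (SE 0.29). Fos was 0.899, 4.72, 3.795 and 0.774 in controls and 1.72, 0.497, 0.642 and 1.39 in mutants, a difference of -0.63 (SE 0.55), once more with control libraries 2 and 3 above all others of the diet.

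Btg2 was 5.81, 8.35, 5.68 and 2.50 in HFD-fed controls and 3.95, 2.66, 2.55 and 4.58 in mutants. Controls 1 to 3 lay above every mutant, whereas control library 4 lay below every mutant, with a difference of -0.51 (SE 0.31). Dusp1, which inactivates MAP kinases and is also induced by glucocorticoids, was 18.9, 46.6, 23.3 and 13.2 in controls and 17.2, 15.6, 18.0 and 12.9 in mutants, where the 4 mutants were closely spaced and control library 2 stood out (difference -0.51, SE 0.35). Jun, Egr1 and Ier3 differed by -0.20 (SE 0.27), -0.25 (SE 0.74) and -0.15 (SE 0.30), and the 2 members above 0 were Myc at 0.23 (SE 0.34) and Atf3 at 0.02 (SE 0.24).

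**Figure D3:**
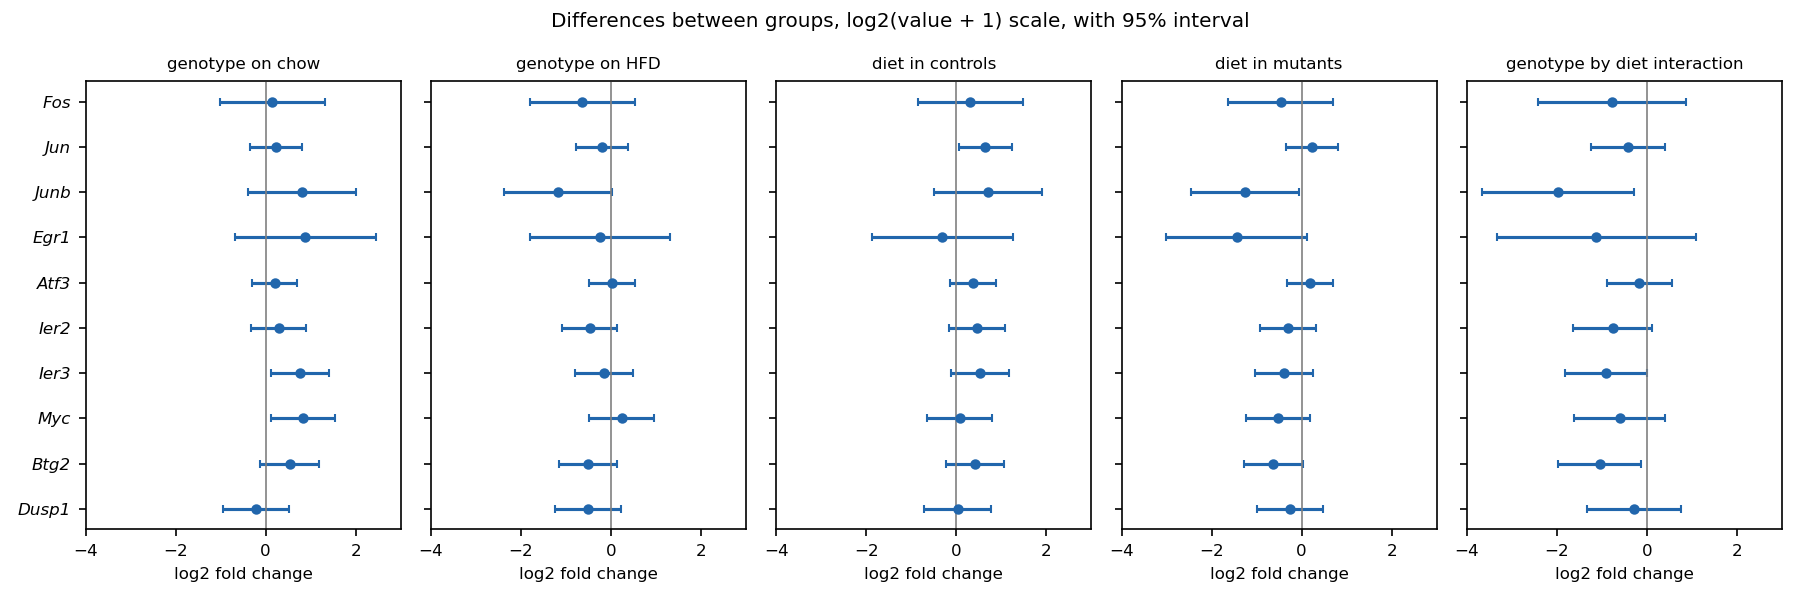
Log2 fold changes of the 10 members on the log2(value + 1) scale in 5 comparisons (mutant minus control on each diet, HFD minus chow in each genotype, and the difference between the genotype differences), as points with 95% intervals from limma; the vertical line marks 0. Intervals are widest for Egr1, Fos and Junb, and the interaction is below 0 in all 10 genes.

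The members were then compared between the title series. Within HFD, with the groups in the fit, 25.2% of all genes differed between the higher and the lower series at the adjusted threshold, and 1 member did, Junb, which was lower in the higher series by 1.69 on the log2 scale (difference -1.69, SE 0.52, limma adjusted p = 0.030), where 11.6% of all genes were called lower. The call was lost in 6 of the 8 fits that left out 1 HFD library each, namely without control library 2, 3 or 4 or mutant library 1, 2 or 3, where Junb kept its sign at -2.12 to -1.25 over the 8 fits. Of the members, 8 were lower in the higher series (2 of 10 above 0, against 53.7% of all genes; median -0.63 beside 0.04 for all genes), and the ones above 0 were Atf3 at 0.42 and Myc at 0.82 (SE 0.31, limma adjusted p = 0.070). At an unadjusted p under 0.05 there were 3 members, Junb, Myc and Btg2, where 37.8% of all genes were. Leaving out 1 library, Junb was lost from these without control HFD library 4, Myc without mutant HFD library 1, and Btg2 without any 1 control or without mutant library 2 or 3. Myc passed the adjusted threshold with plain TPM (27.8% of all genes), with a pseudocount of 0.1 (25.3%) and without control HFD library 4 (5.61%). Junb was 30.7, 71.6, 64.8 and 30.5 in the lower series and 11.3, 10.1, 9.01 and 19.7 in the higher one, without overlap. Ier2 was also without overlap, from 34.4 up in the lower series and up to 33.6 in the higher one, where 16% of all genes were without overlap in that direction. Myc ran the other way, with the lowest of all 16 values, 0.599, in mutant HFD library 1.

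With the title series taken into account, Junb, Ier2, Btg2 and Fos were less apart between genotypes on HFD. In the lower series the single mutant lay below all 3 controls in 5 members (Junb, Atf3, Myc, Btg2 and Dusp1) and among them in the other 5, and for Junb the nearest values were 30.5 and 30.7. In the higher series the 3 mutants were all above the single control in 5 members (Jun, Egr1, Ier2, Myc and Btg2) and around it in the other 5. The share of all genes placed in these ways was not determined, and the members share their high libraries, so these counts are a description only. With the series as a term, the genotype difference on HFD was -0.33 for Junb (SE 0.52), -0.17 for Ier2 (SE 0.32), -0.18 for Btg2 (SE 0.31) and -0.22 for Fos (SE 0.50), and it changed sign for Jun, Egr1, Atf3, Ier3 and Myc. None of the members was under 0.05 unadjusted in that fit, where 4.47% of all genes were. When libraries were instead weighted by their fit, 4 members were called lower in mutants on HFD, Junb at -2.01 (limma adjusted p = 0.0038), Ier2, Btg2 and Dusp1, along with 30.9% of all genes. The lowest weights went to control HFD library 4 (0.23) and mutant HFD library 1 (0.33), which are the libraries whose title series is mostly of the other genotype. Apart from these 2 libraries, genotype and title series on HFD cannot be told apart.

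On chow, no gene passed the threshold between the title series (0% of genes), and Fos was the member under 0.05 unadjusted, where 11.6% of all genes were, at -1.35 (SE 0.46, limma adjusted p = 0.29). The value rested on mutant chow library 1. Without it Fos was at -0.39 and no longer under 0.05 unadjusted, and Egr1 and Ier2 were (8.82% of all genes). In the fit with all libraries, the remaining members lay between -0.40 (Btg2) and 0.99 (Egr1).

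**Figure D4:**
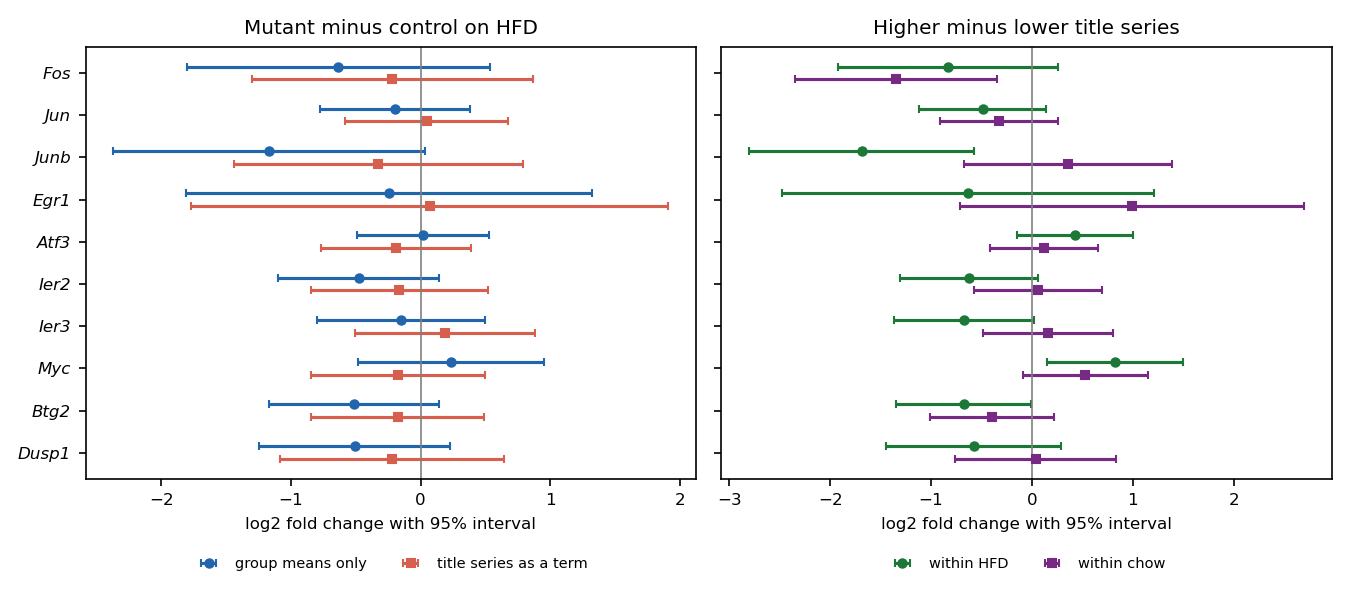
Left, mutant minus control on HFD for each member with group means only (blue circles) and with the title series as a term (red squares). Right, higher minus lower title series within HFD (green circles) and within chow (purple squares); points are log2 fold changes and bars 95% intervals from limma. Junb moves from -1.17 to -0.33 at left, and at right its HFD interval is clear of 0. So are those of Btg2 and, in the other direction, Myc, and within chow that of Fos.

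Between diets, controls and mutants gave opposite leanings. These comparisons use the same 4 group means as those between genotypes. The gap between the 2 diet differences is by construction that between the 2 genotype differences, given below, so these are not separate results. In controls, 9 of 10 members were above 0 on HFD (48.6% of all genes), with a median of 0.39 beside -0.01 for all genes, none passed the threshold (0% of genes), and Jun alone was under 0.05 unadjusted (12.9% of all genes). Jun was 4.74 to 5.95 in chow-fed controls and 7.13, 13.1, 13.1 and 5.04 on HFD. The other 3 HFD libraries lay above every chow library and control HFD library 4 lay within the chow range. The difference was 0.65 (SE 0.27, limma adjusted p = 0.33; exact permutation p = 0.086), with Jun no longer under 0.05 unadjusted when control chow library 1 or 2 or control HFD library 2 or 3 was left out, or with plain TPM. It was 0.89 without control HFD library 4 (limma adjusted p = 0.048), where 7.28% of all genes passed and 5 members (Jun, Junb, Ier2, Ier3 and Btg2) were under 0.05 unadjusted (26.7% of all genes). With library weights, Jun and Ier2 passed, along with 17.8% of all genes. In mutants, 2 of 10 members were above 0 (Jun and Atf3; 47.7% of all genes), with a median of -0.43 beside -0.01. None passed the threshold (0% of genes), and Junb was under 0.05 unadjusted (6.86% of all genes) at -1.26 (SE 0.56, limma adjusted p = 0.72), which became -0.77 without mutant chow libraries 1 and 2. Junb was no longer under 0.05 unadjusted when mutant chow library 1 or 2 or mutant HFD library 2 or 3 was left out alone, nor without both of those chow libraries. Egr1 in mutants was 5.40 to 29.0 on chow and 3.72 to 6.60 on HFD, a difference of -1.44 (SE 0.74; exact permutation p = 0.057), with 3 chow libraries above all HFD libraries. Without mutant chow libraries 1 and 2 the difference of Egr1 was -0.76. Each title series was defined within 1 diet, so diet and series as defined here cannot be told apart. By title number, the higher HFD series, with control HFD library 4, lay next to the chow libraries. The lower HFD series, with control HFD libraries 1, 2 and 3, lay apart from both. The part of this in the diet differences was not tested.

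The difference between the genotype differences, HFD minus chow, was below 0 in each of the 10 members (48.3% of all genes were above 0), with a median of -0.77 beside -0.01, and none passed the adjusted threshold (0% of genes). This leaning was not particular to the members. In the same comparison 0 of 17 acute-phase genes were above 0 (median -1.10) and 0 of 8 neutrophil markers (-3.00). Of Kupffer cell and macrophage markers 0 of 12 were (-0.83), and of NF-kappa B and STAT3 feedback genes 1 of 14 (-0.61). Of other immediate early genes 7 of 29 were (-0.37). Heat shock genes had 5 of 12 above 0 (-0.003), and MAP kinase cascade and SRF-CREB regulators 16 of 29 (0.04). Junb at -1.97 (SE 0.80, 95% interval -3.67 to -0.28, limma adjusted p = 0.90) and Btg2 at -1.05 (SE 0.43, limma adjusted p = 0.90) were under 0.05 unadjusted, as 4.21% of all genes were. When 1 library was left out, Junb was not under 0.05 unadjusted without control chow library 2, control HFD library 2 or 3 or mutant HFD library 2 or 3, nor was Btg2 without control chow library 1, mutant chow library 1 or 2, control HFD library 2 or mutant HFD library 2 or 3. The smallest was that of Atf3 at -0.18 (SE 0.34). The members are not independent of each other, as their shared high libraries show. Without mutant chow libraries 1 and 2 none was under 0.05 unadjusted. Junb came to -1.48 and Btg2 to -0.52. Fos went from -0.78 to -0.03, Egr1 from -1.13 to -0.45 and Jun from -0.43 to -0.13. Atf3, Dusp1 and Myc lay further below 0, at -0.32, -0.55 and -0.61. With the title series as a term Junb came to -1.04 (SE 0.69), and none was under 0.05 unadjusted, where 3.51% of all genes were.

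The highest mean TPM was that of chow-fed mutants in 5 members, HFD-fed controls in 4 and HFD-fed mutants in Atf3. By the mean of log2(value + 1), Fos, whose mean TPM in chow-fed mutants rested on library 1, was highest in HFD-fed controls and Junb in chow-fed mutants. By mean TPM, the lowest group was HFD-fed mutants in 6 and chow-fed controls in 4. Mean TPM of Atf3 ran from 1.93 ± 0.83 (SD, n = 4) in chow-fed controls through 2.35 ± 0.97 and 2.69 ± 0.51 to 2.82 ± 1.09 in HFD-fed mutants, and these groups overlapped.

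Other immediate early genes were looked at next. Of 39 further symbols of immediate early genes (2 pairs of which are older and newer names of 1 gene), 34 had a value and 29 were tested, and none was called in the 5 group comparisons. The leading gene by unadjusted p was Gadd45g, a growth arrest gene, at 4.48, 9.17, 4.37 and 4.82 in chow-fed controls and 17.2, 35.2, 10.1 and 16.3 in chow-fed mutants, without overlap. On HFD it was 12.6, 22.2, 13.3 and 7.68 in controls and 4.50, 8.56, 9.55 and 4.10 in mutants. Its interaction was -2.49 (SE 0.52, limma adjusted p = 0.90) and its difference on chow 1.55 (SE 0.37, limma adjusted p = 0.40). Rhob, a small GTPase, differed on chow by 0.59 (SE 0.16, limma adjusted p = 0.55). Between the title series on HFD, 5 of the 29 were called, all lower in the higher series, where 11.6% of all genes were called lower and 25.2% in either direction. They were led by the AP-1 subunit Jund at -1.17, the Btg2 relative Btg1 at -0.98, the mRNA decay factor Zfp36 at -1.15 and the orphan receptor Nr4a1 at -0.75.

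Upstream of the members, 29 of 29 listed MAP kinase cascade and SRF-CREB regulators were tested, and none was called in the 5 group comparisons, with Elk4 at 0.75 (SE 0.20) and Hras at 0.58 (SE 0.18) between diets in controls the nearest (limma adjusted p = 0.21 and 0.22). Between the HFD title series, 9 were higher and 6 lower, where 25.2% of all genes were called in either direction and 11.6% lower. Of 11 other MAP kinase phosphatases, the family of Dusp1, 8 were tested, with none called in the group comparisons and Dusp14 alone lower between the HFD series at -0.69 (11.6% of all genes).

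Stress programmes that are often read next to immediate early genes were not called in the 5 group comparisons either. Among 13 tested genes of the integrated stress response, in which Atf3 takes part, the nearest was Chac1, which degrades glutathione, with an interaction of -1.74 (SE 0.58, limma adjusted p = 0.90). Between the HFD title series 6 of the 13 were lower (11.6% of all genes), led by Ddit3 at -0.92, the factor CHOP. Among 12 tested heat shock genes, Hspb1, a small heat shock protein, was 77.1, 51.1, 50.4 and 20.8 in HFD-fed controls and 16.3, 6.15, 9.36 and 9.10 in mutants, without overlap and closest to the threshold at -2.11 (SE 0.35, limma adjusted p = 0.081). On chow the 4 mutants, at 4.65, 6.18, 6.42 and 5.74, also lay below all 4 controls. The share of all genes without overlap in this direction was not determined on either diet. Of the 12 heat shock genes, 1 was above 0 between genotypes on chow (54.6% of all genes), with a median of -0.30. On HFD 0 of the 12 were (52.9% of all genes), with a median of -0.28. Hspb1 was also lower between the HFD series at -1.19, 1 of 4 heat shock genes called there, all lower (11.6% of all genes). Among 16 glucocorticoid response genes, a class to which Dusp1 also belongs, Mt2, a metallothionein, was 19.5 to 56.9 in chow-fed controls and 734, 5541, 174 and 207 in chow-fed mutants, a difference of 4.31 (SE 0.94, limma adjusted p = 0.28), highest in the 2 libraries with the high neutrophil markers. Between the HFD title series 1 of the 16 was called higher and 1 lower (25.2% of all genes in either direction). Their median was -0.40 beside 0.04 for all genes. Of the 8 neutrophil markers tested on chow, all 8 were higher in mutants at an unadjusted p under 0.05 (4.23% of all genes), with a median of 4.30, and none was called. All 17 acute-phase genes were above 0 on chow (54.6% of all genes), with a median of 0.83 and 7 higher at an unadjusted p under 0.05. Of 14 tested NF-kappa B and STAT3 feedback genes, 13 were above 0, with a median of 0.51 and 4 higher under 0.05. None of these was called on chow. Acute-phase genes summed to 37620 and 131400 in mutant chow libraries 1 and 2. They summed to 21050 and 20560 in libraries 3 and 4 and to 16810 to 20740 in chow-fed controls. The part of these in the member values was not tested.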

How the data were processed

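The deposited table held 16 liver libraries, made by the authors with kallisto on mm10 and normalised with sleuth, so that the deposited signal is TPM divided by a size factor per library. Versions of these tools are not given in the sources used here. The unit was inferred from the values and the study's methods, and depth is unknown. Groups were taken from the sample labels, and replicate numbers follow sample order and pair nothing. limma 3.58.1 (R 4.3.3) was fitted to log2(value + 1) of genes with a value of at least 1 in at least 4 libraries, with 4 group means, empirical Bayes with a variance trend and Benjamini-Hochberg adjustment over 12704 genes. A second fit added the title series. Exact permutation tests of 4 against 4 libraries were two-sided over 70 splits. The code was tested on simulated data. P-values weigh a difference against the spread between these libraries. The 10 members and all lists were chosen with earlier results of these data known. All members are named. Of each other list at most 4 called genes are named per comparison or, where none passed, at most 2 by unadjusted p. Genes most like the members were ranked by mean r of residuals from group means. Alternatives were other scalings, a pseudocount of 0.1, other filters, library weights, no variance trend, the title series as a term, only the groups compared and leaving out libraries.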

Additional observations from a re-analysis of the deposited data

Results flagged for a closer look

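In 40 sets of 4 libraries (10 members in 4 groups), 4 held a value whose gap to its nearest neighbour, divided by the range of the group, was above Dixon's critical value for 4. Chance gives about 1 in 20 such sets for independent normal values. That rate need not hold here, because TPM was used without a log transform and the sets share libraries and members that are alike. Fos was 3.25 in control chow library 2, with the next value at 1.19 (gap over range 0.888). Fos was 9.83 in mutant chow library 1, with the next at 0.994 (0.940). Jun was 11.8 in the same library, with the next at 5.50 (0.932). Ier3 was 4.11 in mutant chow library 2, with the next at 1.36 (0.943). Mutant chow libraries 1 and 2 are those with the neutrophil marker sums of 3054 and 6606, and their part in these values was not tested.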

How the results depend on the processing

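No member was called in a group comparison under any alternative, except that library weights called 4 on HFD between genotypes and 2 between diets in controls (Jun 0.93 and Ier2 0.75), and that Jun was called between diets without control HFD library 4. Genes called between genotypes on chow were 6 with weights, 1 with a filter at 5 or the title series as a term and 6 with only the groups compared, and on HFD 3926 with weights and 1 with only the groups compared. Between diets in controls they were 2 with plain TPM, 2264 with weights and 4 with only the groups compared, in mutants 9 with weights, 1 with only the groups compared and 2 without mutant chow libraries 1 and 2 (added after seeing the data), and between chow title series 2 with no filter. Members called between HFD series were 2 with plain TPM and 2 with a pseudocount of 0.1 (Myc at 0.91 and 1.28). The filter at 5 left 6 members tested. Plain TPM moved the median of all genes by over 0.1, to -0.16 between diets in controls, 0.13 in the interaction and 0.17 between HFD series.

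Signs that turned were, for genotype on chow, Fos with a pseudocount of 0.1 (-0.0023), weights (-0.10) and without mutant chow libraries 1 and 2 (-0.61), and, without those libraries, Jun (-0.065) and Dusp1 (0.044). Genotype on HFD turned for Atf3 with median-of-ratios scaling (-0.0023) and, with the series term, for Jun (0.049), Egr1 (0.071), Atf3 (-0.19), Ier3 (0.19) and Myc (-0.18), while the interaction of Dusp1 became 0.0051. Diet in controls turned with plain TPM for Myc (-0.043) and Dusp1 (-0.14) and with weights for Egr1 (0.34), and diet in mutants for Fos without mutant chow libraries 1 and 2 (0.28). Between chow series, Dusp1 was -0.020 with plain TPM, and with weights Atf3 was -0.11, Ier3 -0.056 and Dusp1 -0.0038. The cause was not tested.

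Leaving out 1 library at a time gave these ranges. Genotype on chow had 1 to 14 genes called, with Fos at -0.51 to 0.46, Jun at -0.031 to 0.33 and Dusp1 at -0.41 to 0.054. Genotype on HFD had 2 to 141 genes, with Egr1 at -0.79 to 0.30, Atf3 at -0.16 to 0.16, Ier3 at -0.37 to 0.04 and Myc at -0.025 to 0.62. Diet in controls had 0 to 925 genes and 0 to 1 members, with Egr1 at -0.86 to 0.31, Myc at -0.06 to 0.25 and Dusp1 at -0.30 to 0.28. Diet in mutants had 0 to 2 genes, with Fos at -0.79 to 0.19. In the interaction Atf3 was -0.35 to 0.0068 and Dusp1 -0.56 to 0.039. HFD series had 713 to 3013 genes and 0 to 1 members, with Junb at -2.12 to -1.25, Egr1 at -1.40 to 0.14 and Myc called without control HFD library 4. Chow series had 0 to 2 genes, with Jun at -0.47 to 0.21, Junb at -0.10 to 1.12, Atf3 at -0.053 to 0.37, Ier2 at -0.21 to 0.72, Ier3 at -0.0089 to 0.30, Btg2 at -0.59 to 0.0060 and Dusp1 at -0.25 to 0.35. No paired analysis was possible because the replicate numbers follow sample order and mark no shared animal, litter or day.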
